A study of Rattus norvegicus with 6 samples.

Results

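The genes described here are used as markers of the thick ascending limb. This segment of the nephron takes up salt without water between the medulla and the distal tubule. The genes were chosen by name: Umod, Egf, Slc12a1, Kcnj1, Bsnd, Cldn16, Cldn19, Ptger3 and Ppp1r1a, 9 of the 15645 genes that the arrays' probes could be tied to. They are read by 20 of the 61453 probes analysed. All 20 were well above background on all 6 arrays, so that each transcript was measured in every animal. Whether other cells of the cortex make the same transcripts was not tested. RNA was taken from kidney cortex; the rats were males of the outbred Sprague-Dawley stock Crl:CD(SD), purchased when 5 weeks old. For 4 weeks, 3 rats received 1,2-dibromoethane at 75 mg/kg/day, a compound once used to fumigate soil and grain, while 3 control rats received corn oil. The route and the vehicle of the dosed rats are not given in the labels, and whole cortex mixes many cell types, so that fewer cells of a segment and less RNA per cell cannot be told apart in any value below.

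Cells of the thick ascending limb bring sodium, potassium and chloride in from the lumen through the cotransporter NKCC2, return potassium to the lumen through the channel ROMK, and pass chloride to the blood side through channels that need the subunit barttin. The lumen-positive voltage that results drives calcium and magnesium between the cells through tight junctions built with claudin 16 and claudin 19. The same cells secrete uromodulin, the most abundant protein of normal urine, and rodent distal tubules make the precursor of epidermal growth factor.

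The comparison asks whether these transcripts differed between dosed and control rats. Claudin 16 and the prostaglandin receptor Ptger3 were lower on all 3 dibromoethane arrays than on all 3 control arrays, by 1.65-fold and 1.32-fold on average. Uromodulin and NKCC2 were low on 2 of the 3 dibromoethane arrays and high on the other one, and the groups overlapped for ROMK and barttin. None of the 9 genes passed the test: 0 had a limma adjusted p under 0.05, beside 0.0311% of the 28961 features tested (9 features), and 0 were called lower, beside 0.00691%. At an unadjusted p under 0.05 stood 2 of the 9, both lower, beside 11.1% of all features in either direction and 6.62% lower. Of the 20 probes fitted singly, 0 were called, beside 0.0268% of all probes tested (0.00537% lower), and 4 had an unadjusted p under 0.05, all lower, beside 11.3% in either direction and 6.59% lower. The log2 fold change was negative for 7 of the 9, beside 53.6% of all features, and for 15 of the 20 probes, beside 53.2% of all probes. Its median over the 9 genes was -0.08, beside -0.02 over all features.

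Levels are log2 of the scanner's processed signal relative to the 75th percentile of the array, so that 0 stands for that percentile, and a difference of 1 is a factor of 2. A level holds for its own probe only and is not compared between genes. The arrays lay on 3 slides: slide 1 held dibromoethane replicate 2 with control replicates 1 and 2, slide 2 held dibromoethane replicate 1 with control replicate 3, and slide 3 held dibromoethane replicate 3 alone. What belongs to slide 3 and what belongs to that animal cannot be told apart. The number of arrays limits the precision. Each limma p-value sets the group difference against the spread between the 3 arrays of each group, moderated over all features. That spread holds slides as well as animals.

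The windows before the start sites of the 2 genes with the most negative fold changes, Cldn16 and Umod, and of Cldn19, the tight junction partner of Cldn16, are shown so that the genes can be compared letter by letter. They run from 250 bases before to 50 bases after the start RefSeq gives in GRCr8 and are written 5′ to 3′ on the gene's strand, at chr11:87814347-87814646 (minus strand) for Cldn16, chr1:183260967-183261266 (minus strand) for Umod and chr5:138148325-138148624 (plus strand) for Cldn19. Capitals mark 2 motifs: TATAAA, found in many core promoters, and the palindrome GCCNNNGGC, known as a binding site of AP-2 factors. The TATAAA stretches of Umod begin at -219 and -173 relative to the start, and their use as core promoter elements was not tested.
Cldn16: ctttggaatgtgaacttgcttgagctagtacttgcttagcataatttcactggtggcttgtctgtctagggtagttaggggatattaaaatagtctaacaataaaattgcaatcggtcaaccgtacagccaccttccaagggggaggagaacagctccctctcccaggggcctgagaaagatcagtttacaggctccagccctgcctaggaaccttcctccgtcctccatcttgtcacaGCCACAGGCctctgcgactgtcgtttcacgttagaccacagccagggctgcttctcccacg
Umod: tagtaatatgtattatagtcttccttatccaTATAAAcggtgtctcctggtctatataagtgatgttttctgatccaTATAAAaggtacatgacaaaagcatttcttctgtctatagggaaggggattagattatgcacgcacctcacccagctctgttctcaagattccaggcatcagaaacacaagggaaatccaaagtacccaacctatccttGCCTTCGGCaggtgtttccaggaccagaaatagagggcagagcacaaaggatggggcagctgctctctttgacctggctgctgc
Cldn19: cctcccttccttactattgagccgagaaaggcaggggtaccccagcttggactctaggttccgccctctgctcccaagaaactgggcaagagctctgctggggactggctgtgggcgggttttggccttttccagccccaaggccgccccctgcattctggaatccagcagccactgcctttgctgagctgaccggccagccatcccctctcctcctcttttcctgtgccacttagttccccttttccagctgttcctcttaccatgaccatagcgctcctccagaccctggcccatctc

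RefSeq windows were at hand for 8 of the 9 genes, 10 windows in all, and motifs were searched on both strands, chosen with the expression values known. GCCNNNGGC stood in the windows of Cldn16, Umod and Ptger3, 3 of the 10, and in 15.2% of all 33365 windows of this length. TATAAA stood in those of Umod and Kcnj1, and in 14.2% of all windows. The motif AAGGTCA, known from sites of oestrogen-related receptors, was in none of the 10, and in 4.61% of all windows. These matches describe letters, and binding at them was not tested.

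Of the secreted products, Umod had log2 levels of 7.72, 8.36 and 6.94 in dibromoethane replicates 1 to 3, against 8.23, 8.33 and 8.18 in control replicates 1 to 3. The groups overlapped: dibromoethane replicate 2 was the highest of all 6 arrays and dibromoethane replicate 3 the lowest. As processed signal, Umod read 200192, 273772 and 111501 in dibromoethane rats and 257156, 261932 and 251019 in control rats, below the scanner's limit of 778785 to 779162 throughout, with 0 saturated spots. The difference was -0.57 (SE 0.34, 95% interval -1.40 to 0.26, limma adjusted p = 0.561). The SD over arrays was 0.71 in dibromoethane rats and 0.07 in control rats (n = 3 each). A second Umod probe gave -0.56 (SE 0.30), and on both probes dibromoethane replicate 3 was the lowest array.

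Egf, which encodes the membrane-bound precursor of epidermal growth factor, had levels of 5.20, 5.25 and 4.57 in dibromoethane rats, against 5.11, 5.08 and 5.03 in control rats. The first 2 dibromoethane arrays were above all controls and the third was below them. The difference was -0.07 (SE 0.19, 95% interval -0.53 to 0.39, limma adjusted p = 0.911). Its other probe gave 0.03 (SE 0.14), with the same array lowest.

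Among the salt transport genes, Slc12a1, which encodes NKCC2, the target of loop diuretics, had levels of 4.12, 4.50 and 3.60 in dibromoethane rats, against 4.24, 4.23 and 4.57 in control rats. The groups overlapped through dibromoethane replicate 2, and replicate 3 was the lowest of the 6 arrays. The difference was -0.27 (SE 0.24, 95% interval -0.86 to 0.31, limma adjusted p = 0.689), with -0.21 (SE 0.23) from the other probe.

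Kcnj1, the gene of ROMK, stood at 0.85, 0.73 and 0.59 in dibromoethane rats, against 0.61, 0.55 and 0.76 in control rats. The groups overlapped, with dibromoethane replicate 1 above all controls, and the difference was 0.08 (SE 0.10, 95% interval -0.16 to 0.33, limma adjusted p = 0.780). Bsnd, the gene of barttin, stood at 1.83, 1.83 and 1.75 in dibromoethane rats, against 1.72, 1.70 and 1.87 in control rats. It was the 1 gene of the 9 whose SD was smaller in dibromoethane rats (0.04) than in control rats (0.09), and its difference was 0.04 (SE 0.08, 95% interval -0.15 to 0.23, limma adjusted p = 0.870). The other probe gave 0.01 (SE 0.11) for Kcnj1 and 0.09 (SE 0.10) for Bsnd. These intervals leave room for changes of up to 0.33 in Kcnj1 and 0.23 in Bsnd on the log2 scale, so that equal levels are not shown.

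The claudins of the divalent cation pathway come next. Cldn16 had levels of -1.75, -1.29 and -2.03 in dibromoethane rats, against -0.82, -0.996 and -1.11 in control rats. All 3 dibromoethane arrays were below all 3 controls, and the difference was -0.72 (SE 0.20, 95% interval -1.21 to -0.24, limma adjusted p = 0.355). The other probe gave -1.76, -1.23 and -1.87 in dibromoethane rats, against -0.92, -1.11 and -1.21 in control rats, again with no overlap (log2 fold change -0.54, SE 0.18).

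Cldn19 had levels of 2.42, 2.55 and 1.84 in dibromoethane rats, against 2.41, 2.22 and 2.43 in control rats. Here only dibromoethane replicate 3 was below the controls, and the difference was -0.08 (SE 0.19, 95% interval -0.56 to 0.39, limma adjusted p = 0.895). Its other 2 probes gave -0.003 (SE 0.19) and -0.02 (SE 0.18). Within each array, the level of Cldn16 minus that of Cldn19, set relative to the control mean, was -0.85, -0.52 and -0.55 in dibromoethane rats, against 0.10, 0.11 and -0.21 in control rats. The pair was formed for its known partnership with the values already seen, so that its separation is a description with no test.

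**Figure D1:**
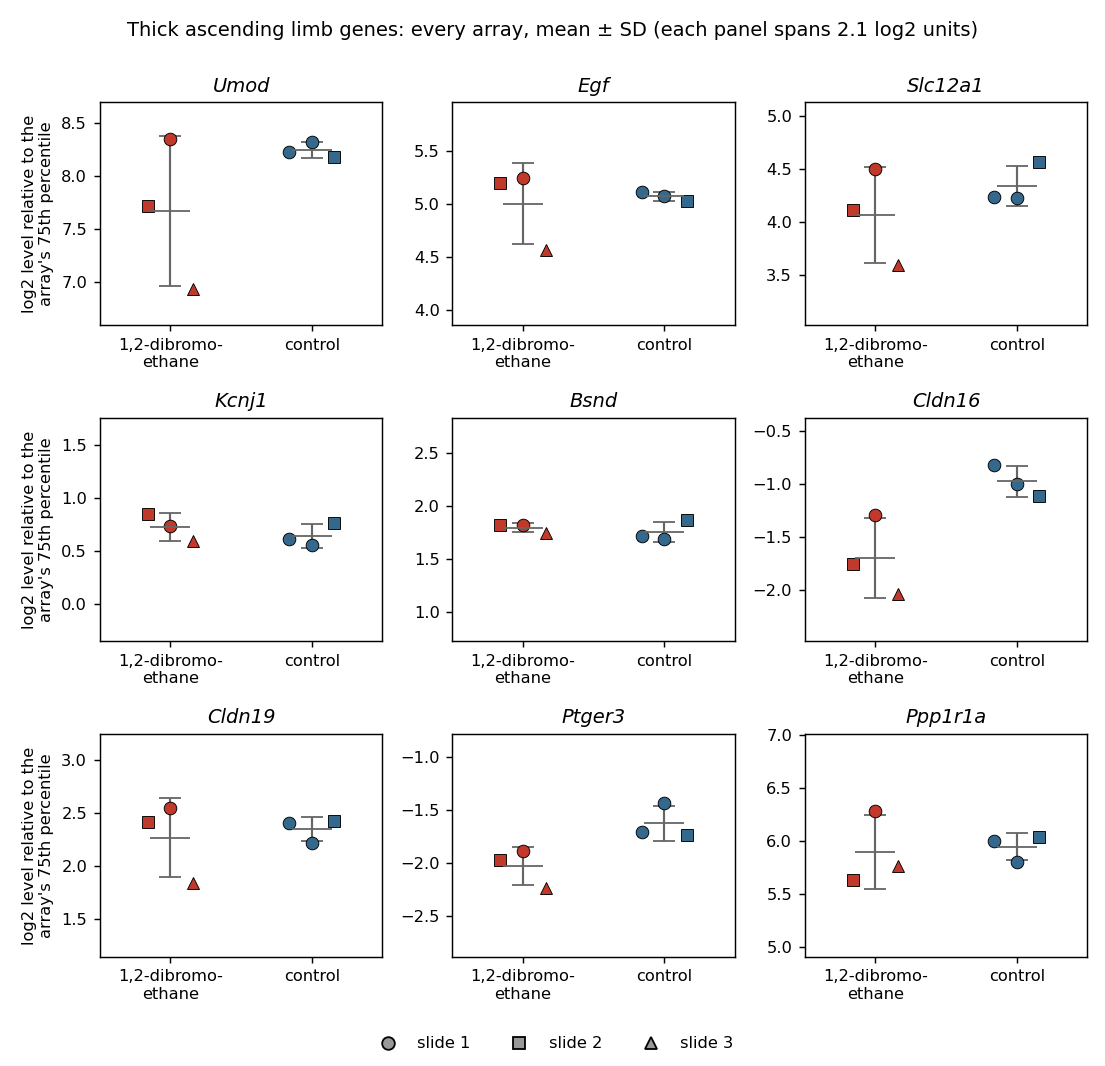
Log2 level relative to the array's 75th percentile (y axis, 2.1 log2 units in every panel) of the 9 genes in dibromoethane rats (left) and control rats (right), with 1 point per array, its shape giving the slide, and bars for mean ± SD (n = 3). Cldn16 and Ptger3 separate the groups, while for Umod, Egf, Slc12a1 and Cldn19 the slide 3 array, dibromoethane replicate 3, lies lowest and dibromoethane replicate 2 above the control mean.

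Of the signalling genes, Ptger3 encodes the EP3 receptor, through which prostaglandin E2 lowers cyclic AMP. Its level was -1.97, -1.88 and -2.23 in dibromoethane rats, against -1.71, -1.43 and -1.74 in control rats. The groups did not overlap, and the difference was -0.40 (SE 0.13, 95% interval -0.72 to -0.08, limma adjusted p = 0.378). Of its other 2 probes, one separated the groups (-0.29, SE 0.11) and the other did not (-0.24, SE 0.16): on it dibromoethane replicate 1 was the highest of the 6 arrays.

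Ppp1r1a encodes inhibitor 1, which blocks protein phosphatase 1 when cyclic AMP is high. It had levels of 5.63, 6.29 and 5.76 in dibromoethane rats, against 5.998, 5.802 and 6.04 in control rats. Dibromoethane rats held both the lowest and the highest array, and the difference was -0.05 (SE 0.18, 95% interval -0.50 to 0.40, limma adjusted p = 0.929). Its 2 probes gave -0.05 and -0.06.

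In all, the groups did not overlap for 2 of the 9 genes, both lower in dibromoethane rats, which is 22.2% beside 12.1% of all features, and for 4 of the 20 probes, which is 20% beside 11.8% of all probes tested. No gene or probe separated the groups upward, beside 7.38% of features and 7.59% of probes; in either direction the background is 19.5% and 19.4%. With 9 genes these shares are near the background and are not read as a property of the group.

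Dibromoethane replicate 3 was the lowest of the 6 arrays for 6 of the 9 genes, where it was lowest for 20.0% of all features, and dibromoethane replicate 2 the highest for 4 of the 9, where it was highest for 16.02% of all features. The SD was larger in dibromoethane rats for 8 of the 9 genes, beside 53.4% of all features. Both counts were made with the values known. Relative to the mean of the controls, dibromoethane replicate 3 stood at -1.31 for Umod, -1.06 for Cldn16, -0.75 for Slc12a1, -0.61 for Ptger3, -0.51 for Cldn19 and -0.50 for Egf. On the same array Ppp1r1a was at -0.18, Kcnj1 at -0.05 and Bsnd at -0.01, so that the members did not shift by a common amount.

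Within slides the direction depended on the gene. Cldn16 was -0.39 against the controls of slide 1 and -0.65 against the control of slide 2, and Ptger3 -0.31 and -0.23, negative on both. Umod was 0.08 within slide 1 and -0.46 within slide 2, Slc12a1 0.27 and -0.45, and Ppp1r1a 0.39 and -0.41, with opposite signs on the 2 slides. Egf was 0.15 and 0.17, Kcnj1 0.15 and 0.09, Cldn19 0.23 and -0.01 and Bsnd 0.12 and -0.04. Without dibromoethane replicate 3, the difference was -0.55 for Cldn16, -0.30 for Ptger3, -0.21 for Umod and -0.04 for Slc12a1, and it turned positive for Egf (0.15), Cldn19 (0.13) and Ppp1r1a (0.01). Ppp1r1a also turned positive (0.078) without dibromoethane replicate 1.

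**Figure D2:**
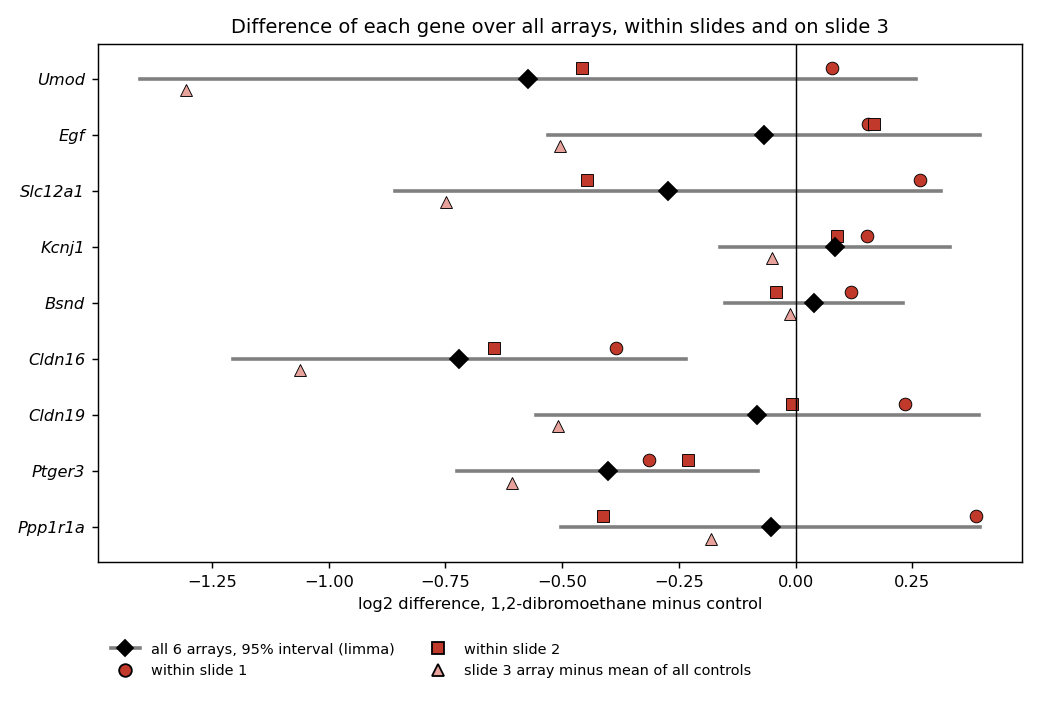
Log2 difference, dibromoethane minus control (x axis), for each of the 9 genes (y axis). Black diamonds with bars give all 6 arrays with the 95% interval of limma, red circles and squares the difference within slides 1 and 2, and pale triangles the slide 3 array minus the mean of all controls. The intervals of Cldn16 and Ptger3 lie below 0, and their symbols are all left of 0. These intervals are not adjusted for the number of features. Their limma adjusted p were 0.355 and 0.378, and 6.62% of all features were lower at an unadjusted p under 0.05. The symbols of Umod spread from -1.31 to 0.08.

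Other genes of the segment were taken from a list of 43, of which 38 were tested. Kcnj10, Esrrb, Ptgs2 and Nos1 did not pass the filter on dim probes, and Ptger1 had no probe tied to it here. Of the 38, 0 passed over all features in limma in either direction, beside 0.0311% of all features. The unadjusted p was under 0.05 for 3 of the 38, beside 11.1% of all features. These were Avpr2, which was higher, and Tfcp2l1 and Atp1b1, which were lower. The log2 fold change was negative for 22 of the 38, beside 53.6% of all features, with a median of -0.02. The groups did not overlap for 4 genes lower in dibromoethane rats (beside 12.1% of all features) and 3 genes higher (beside 7.38%). Such counts stand near the shares over all features and are not read as a property of the segment.

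Those with the smallest p are named, none of them called by limma. Avpr2, the vasopressin V2 receptor, had levels of 0.72, 0.89 and 0.52 in dibromoethane rats, against 0.32, 0.21 and 0.40 in control rats (difference of 0.40, SE 0.11, limma adjusted p = 0.359). Casr, the calcium-sensing receptor, which restrains calcium uptake in this segment, had 3.42, 3.79 and 3.12, against 3.72, 3.98 and 3.95 in control rats (-0.44, SE 0.18, limma adjusted p = 0.449). Its groups overlapped because dibromoethane replicate 2 was above control replicate 1.

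A subunit of the sodium pump and one of a potassium channel, both of the basolateral membrane, were lower on every dibromoethane array, by small amounts. Atp1b1, the beta subunit of the sodium pump, had 8.02, 8.09 and 7.99 in dibromoethane rats, against 8.21, 8.22 and 8.24 in control rats (-0.19, SE 0.07, limma adjusted p = 0.402). Kcnj16, a basolateral potassium channel subunit, had 4.54, 4.50 and 4.48, against 4.65, 4.65 and 4.62 in control rats (-0.13, SE 0.06, limma adjusted p = 0.485).

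Of the transcription factors, Tfcp2l1, known from more distal tubule cells as well, had a log2 fold change of -0.34 (SE 0.10) without overlap. The kinase Oxsr1, which phosphorylates NKCC2, had 0.18 (SE 0.08), and Cab39l, an adaptor of such kinases, 0.14 (SE 0.07), both without overlap. By role, the median was -0.01 over 10 ion transport genes, 0.10 over 3 claudins, -0.05 over 13 regulators (kinases and other signalling, processing and trafficking genes), -0.14 over 5 receptors and -0.07 over 7 transcription factors.

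**Figure D3:**
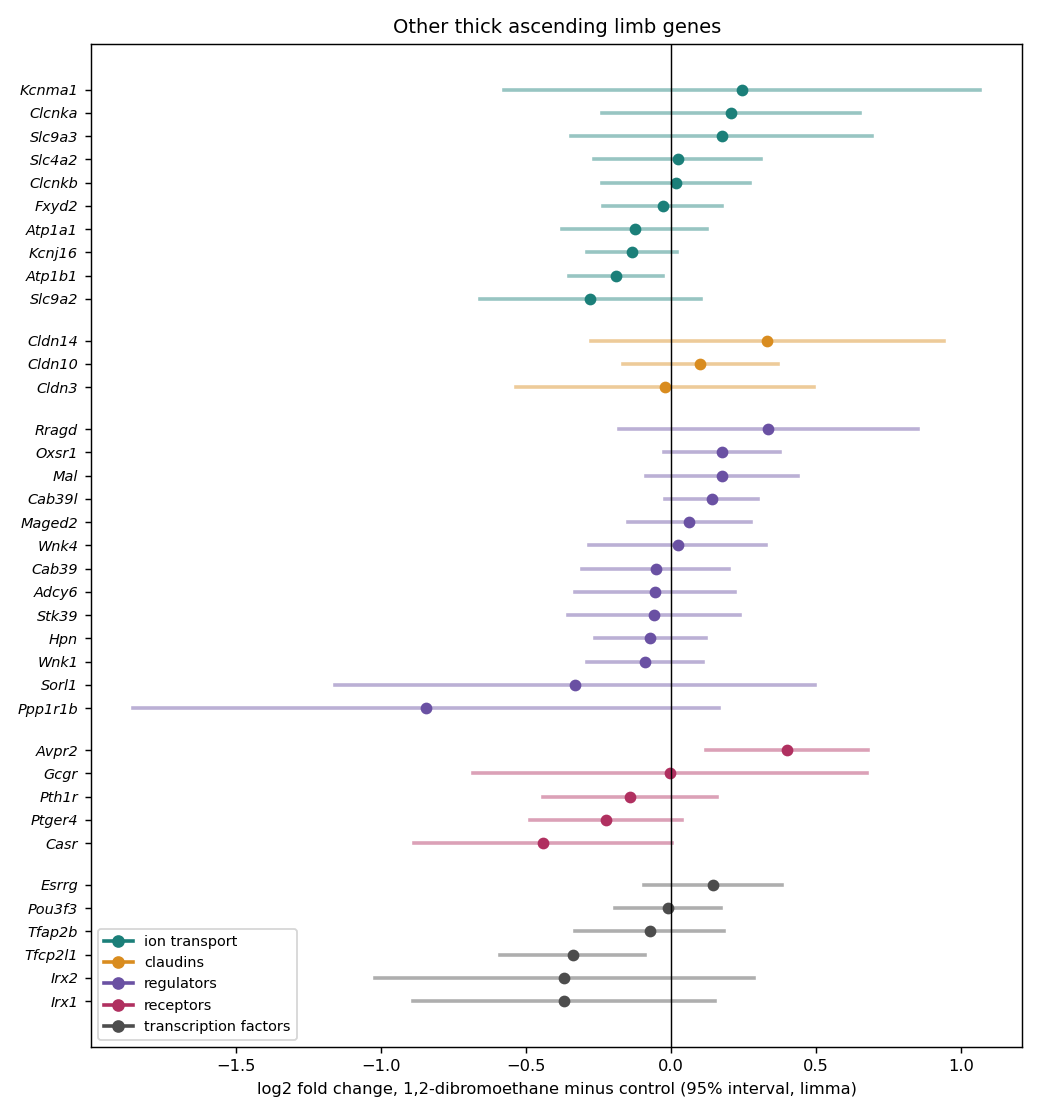
Log2 fold change, dibromoethane minus control (x axis), with the 95% interval of limma, for the tested genes of the segment that are not among the 9, all but 1 of the 38, coloured by role and ordered by value within each role. Values run from -0.84 (Ppp1r1b) to 0.40 (Avpr2). Of the 38, 22 are negative, beside 53.6% of all features, and none passed the adjusted threshold, beside 0.0311%.

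Marker lists of the neighbouring segments and of other cells were read on the same arrays, and their part in the differences above was not tested. The end of the straight proximal tubule lies beside the thick ascending limb in the outer medulla and the medullary rays. Its list (5 of 5 tested) had medians relative to the control mean of 0.03, 0.09 and -0.82 on dibromoethane replicates 1 to 3. The 9 genes had -0.23, 0.11 and -0.51. On replicate 3 the genes of the list ran from -1.92 for Slc7a13 to -0.03 for Slc17a3. Its amino acid transporter gene Slc7a13 stood at 4.03, 4.76 and 2.74 in dibromoethane rats, against 4.72, 5.12 and 4.14 in control rats. The signal summed over that list, in units of the 75th percentile, was 153 to 251 in dibromoethane rats and 225 to 307 in control rats, and the sum over the 9 genes 222 to 478 in dibromoethane rats and 424 to 440 in control rats. Such sums weigh most the probe with the highest signal, which is Umod among the 9 genes and Acy3 in the straight proximal tubule list, so they follow that probe more than the list.

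The proximal tubule list was lower by a like amount on all 3 dibromoethane arrays (medians of -0.12, -0.11 and -0.12; sums of 1969 to 2003 in dibromoethane rats and 2154 to 2266 in control rats; 9 of 9 tested). On dibromoethane replicates 1 to 3, the distal convoluted tubule list had medians of 0.14, 0.13 and -0.03 (3 of 6 tested, sums of 25.6 to 29.1 in dibromoethane rats and 24.5 to 27.3 in control rats), and the principal cell list 0.13, 0.17 and 0.03 (5 of 6 tested, sums of 202 to 246 in dibromoethane rats and 217 to 249 in control rats). Slc12a3, the cotransporter of the next segment, read 4.51, 4.49 and 4.34 in dibromoethane rats, against 4.37, 4.31 and 4.43 in control rats. On dibromoethane replicates 1 to 3 the medians were -0.01, -0.03 and -0.18 for intercalated cells, 0.18, -0.13 and -0.05 for the inner medulla, and -0.12, 0.06 and -0.20 for podocytes. They were -0.05, -0.01 and -0.02 for endothelium and -0.30, -0.16 and -0.34 for macrophages (4 of 5 tested). The 4 macrophage genes differed, with log2 fold changes of -0.54 for C1qa, -0.48 for C1qb, -0.03 for Cd68 and 0.05 for Csf1r. Limma called 0 genes of any of these lists, beside 0.0311% of all features. The liver list, which holds transcripts abundant in liver, had medians of 2.68, 1.34 and 0.69 on dibromoethane replicates 1 to 3, against -0.66, 0.60 and 0.49 on control replicates 1 to 3 (7 of 7 tested, sums of 11.5 to 38.4 in dibromoethane rats and 4.05 to 9.37 in control rats).

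**Figure D4:**
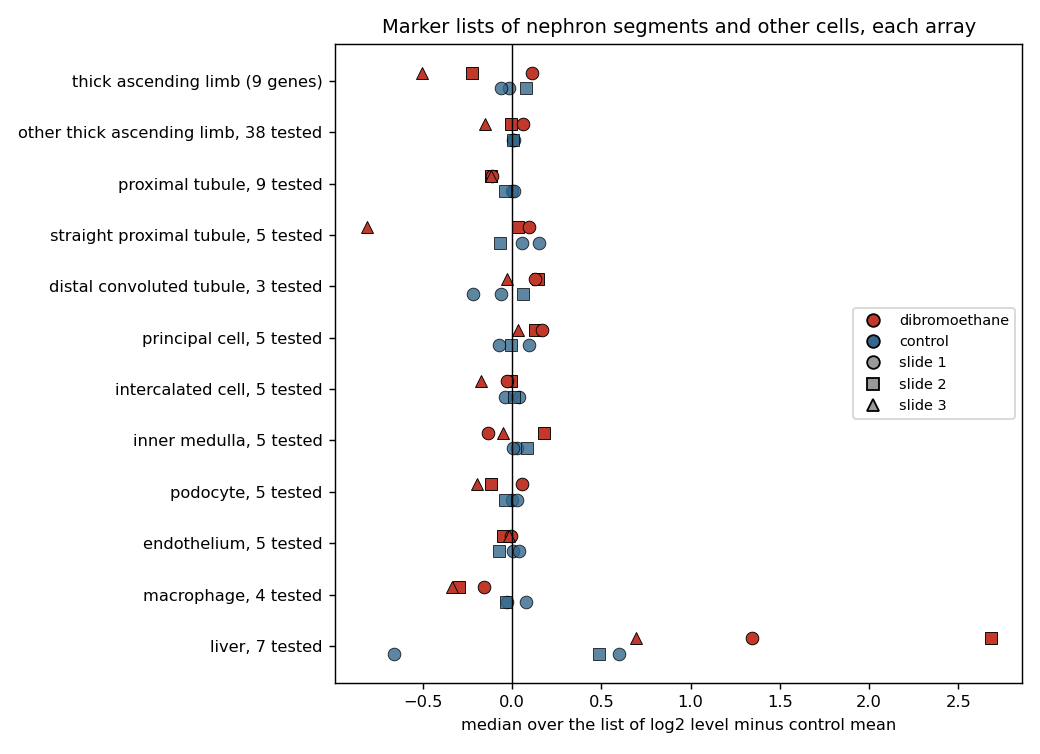
Median over each marker list of the log2 level minus the gene's control mean (x axis) on every array, with red for dibromoethane (upper points of each row) and blue for control, and shapes for the slide. The slide 3 array, dibromoethane replicate 3, is at -0.51 for the 9 genes and at -0.82 for the straight proximal tubule list, and near 0 for the distal convoluted tubule and principal cell lists.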

How the data were processed

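Labelled RNA (Cy3) of each animal was hybridised to its own Agilent array, per the labels' protocols. The scanner output, deposited as 1 table per array, gives intensity values already background-subtracted by Feature Extraction 10.7.1.1, per the file headers (version 10.7 in the submitters' processing notes). The series table the authors deposited has linear intensity values equal to the processed signal over each array's 75th percentile, without centring (r = 1 on a log2 scale, column medians 0.102 to 0.112).

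Left out were 1439 control spots and 84 ERCC probes, and 1 to 11 outlier spots per array were set to missing. Accessions without version were looked up in RefSeq's GRCr8 gene table: 28206 probes got 1 symbol, 0 got several and 33247 stay unnamed. The arrays' grid names build rn4. Log2 signal minus each array's 75th percentile was compared, dibromoethane minus control, in limma 3.58.1 under R 4.3.3 (lmFit, then eBayes; residual degrees of freedom 4, prior 2.04), two-sided, adjusted by Benjamini-Hochberg over all features, with a threshold of 0.05. A gene is its brightest probe by mean signal, an unnamed probe stands for itself, and testing required a signal well above background on every array of 1 group or both. A gene's other probes come from a fit of 37274 single probes. The test was checked on simulated data. Per array, 59.2% to 67.8% of probes were well above background.

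Named are the 9 genes and, of the other genes of the segment, called ones or else the 8 with the smallest p, of which 1 is not reported here; the 5 most similar and 3 most opposed profiles also followed a written rule. The 9 genes and all lists were chosen with earlier results of these data known. Slc7a13, Slc17a3, Slc12a3, the macrophage genes, Ppp1r1b, Slc9a2, Irx1 and Irx2 were named after their values were seen. Normexp (offset 50), planned on the mean signal, ran on the median signal, the one these tables hold. The replicate numbers were not taken as pairs in the main fit. Deviations of same-numbered arrays from their group means correlated, over features, at -0.19, 0.26 and 0.16. For differently numbered arrays the values ran from -0.32 to 0.20. Some of these arrays share a slide, so the correlations cannot decide whether the animals were paired. Alternatives covered normalization, background, filters, probe rule, slide, scan day, replicate block, variance model, the series table and each array left out.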

Additional observations from a re-analysis of the deposited data

How the results depend on the processing

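None of the 9 genes passed an adjusted p of 0.05 in limma under any of the 21 alternatives with a test (1 to 3 of the 9 at an unadjusted p under 0.05, and 4 of the 20 probes fitted singly), nor did any of the other genes of the segment. Over these fits apart from single probes, adjusted p ran from 0.221 to 0.822 for Cldn16 (log2 fold change -0.92 to -0.44) and from 0.269 to 0.823 for Ptger3 (-0.48 to -0.20), and from 0.371 to 0.945 for Umod (-0.91 to -0.15). The count of features called, 9, was 5 with median centring, 5 with normexp, 2 without a filter, 2 with scan day as a block, 17 with trend and robust, and 0 with slide as a fixed block and with only slides holding both groups (limma; 3515 and 3529 at an unadjusted p under 0.05, with 2 residual degrees of freedom). With a replicate block it was 0 (3465 at an unadjusted p under 0.05), and the 9 genes kept their fold changes, as the design is balanced. Leaving out each array gave 1 to 8 features called, and a median over the 9 genes of -0.25 to 0.01. That median was 0.15 within slide 1, -0.23 within slide 2 and 0.044 when slide entered as a fixed block.

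Small differences turned sign. Egf was 0.0085 with quantile normalization, 0.0052 with slide as a random block, 0.16 with slide as a fixed block, 0.16 with only slides holding both groups, and between -0.19 and 0.15 with 1 array left out. Cldn19 was 0.13 with slide as a fixed block and with only slides holding both groups, and -0.22 to 0.13 with 1 array left out. Ppp1r1a was 0.030 with quantile normalization, 0.044 with slide as a fixed block and with only slides holding both groups, and -0.25 to 0.078 with 1 array left out. Bsnd was -0.0026 with normexp. Fewer samples or degrees of freedom apart, the cause was not tested. Processed signal was 222 to 487 for Cldn16 and 193 to 302 for Ptger3, and their differences were -0.44 and -0.20 with normexp.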

Other observations

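The mean profile of the 9 genes over the 6 arrays was -0.08, 0.18 and -0.44 in dibromoethane replicates 1 to 3 and 0.12, 0.08 and 0.14 in control replicates 1 to 3, on the log2 scale relative to each gene's own mean. Of 11413 other named genes, the 5 with the profile most like it, by Pearson r over the 6 arrays, were Nudt14 (0.99), Cytl1 (0.99), Pde1a (0.99), Prf1 (0.99) and Clec12a (0.98), and the 3 most opposed were Vars2 (-0.99), Tg (-0.96) and Pih1d2 (-0.96). Without dibromoethane replicate 3 the r of the first 5 was 0.92 to 0.96, and that of Vars2, Tg and Pih1d2 was -0.94, -0.79 and -0.71. With 6 arrays that share slides, 170 genes (1.49%) had an r over 0.9, and these values are descriptions.

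Pde1a, a calmodulin-dependent phosphodiesterase gene, read -1.76, -1.23 and -2.28 in dibromoethane rats, against -1.29, -1.34 and -1.36 in control rats. Among the other genes of the segment, Ppp1r1b, the relative of inhibitor 1 known as DARPP-32, read -4.02, -2.64 and -4.09 in dibromoethane rats, against -2.48, -2.67 and -3.06 in control rats (difference of -0.84, SE 0.41, limma adjusted p = 0.495). Slc9a2, a sodium-proton exchanger gene, read -0.35, 0.10 and -0.48, against -0.01, 0.06 and 0.06 in control rats. For these 3 genes dibromoethane replicates 1 and 3 were below all controls and replicate 2 was not, as for Umod and Slc12a1. Pde1a was picked for its likeness to the mean profile, and Ppp1r1b and Slc9a2 with their values seen. The likeness therefore follows from the choice and is a description only. The factors Irx1 and Irx2 were lowest on dibromoethane replicate 3, at -0.25 and -2.36, with the other 5 arrays at 0.46 to 0.66 and -1.53 to -1.31.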
